A study of Bos taurus with 12 samples.

Results

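Metaphase II (MII) oocytes of prepubertal heifers were compared with MII oocytes of adult cows. The comparison took in every array that the labels place at MII, which is 6 of the 12 arrays of the series: 3 prepubertal and 3 adult. All 24016 probe sets that are not controls were tested. The prepubertal donors were Japanese Black heifers aged 9 to 12 months whose ovaries were removed on farms, and the adult donors were Japanese Black cows whose ovaries came from an abattoir, so age and source of the ovaries cannot be told apart. Oocytes of both groups came from follicles of 2 to 8 mm, were matured in vitro for 20 to 22 h, were chosen by an extruded polar body and were stripped of cumulus cells. Each array held amplified RNA from 1 pool of 50 oocytes. The pools are labelled as biological replicates, with no animals named, so p-values measure the spread between these pools. Levels are log2 MAS5 signals and differences are prepubertal minus adult on that scale.

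An MII oocyte has finished the first meiotic division and waits, arrested by high M-phase kinase activity, for fertilization. It makes almost no new RNA, so its messages were stored during growth in the follicle and are translated, masked or degraded on schedule. Its mitochondria, ribosomes and proteasomes are the stock from which the first cleavages are run, and oocytes of prepubertal cattle are known for a lower capacity to develop into blastocysts than those of cows. Because each array measures a pool, fewer cells of a type and less RNA per cell cannot be told apart.

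The array labelled prepubertal replicate 1 did not carry the profile its label names. On it GDF9 read 6.27, BMP15 6.55, ZP2 7.98 and ZP4 6.22, while these genes, which encode growth factors and coat proteins made by the oocyte, read 12.09 to 15.08 on the other 5 arrays. KPNA7, an importin of oocytes and early embryos, read 10.27 there and 15.25 to 16.90 elsewhere. None of the 10 measured oocyte genes on this array reached the mean of the other arrays, and their summed linear signal was 5231, against 125764 to 205165. For cumulus and granulosa genes the order was the other way round: 30 of 38 lay above the mean of the others, with a summed linear signal of 405558 against 20378 and 27222 on the other prepubertal arrays and 19651 to 43927 on the adult arrays. Theca and stroma genes summed to 73019 there and to 2010 to 3665 elsewhere. None of the cumulus genes was at 0 on any array. Detection calls were not used, so their low values are not shown to be above background. The list's median was 5.96 and 4.87 on prepubertal replicates 2 and 3 and 5.44, 5.62 and 6.34 on the adult arrays. PTX3, a protein of the expanded cumulus matrix, read 14.53 on prepubertal replicate 1, 7.54 and 8.74 on prepubertal replicates 2 and 3, and 6.14, 6.28 and 5.40 on the adult arrays. The cumulus and granulosa list as a whole did not follow PTX3 without prepubertal replicate 1. There 18 of 38 genes were higher in prepubertal pools and 20 lower, with a median difference of -0.02.

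**Figure D1:**
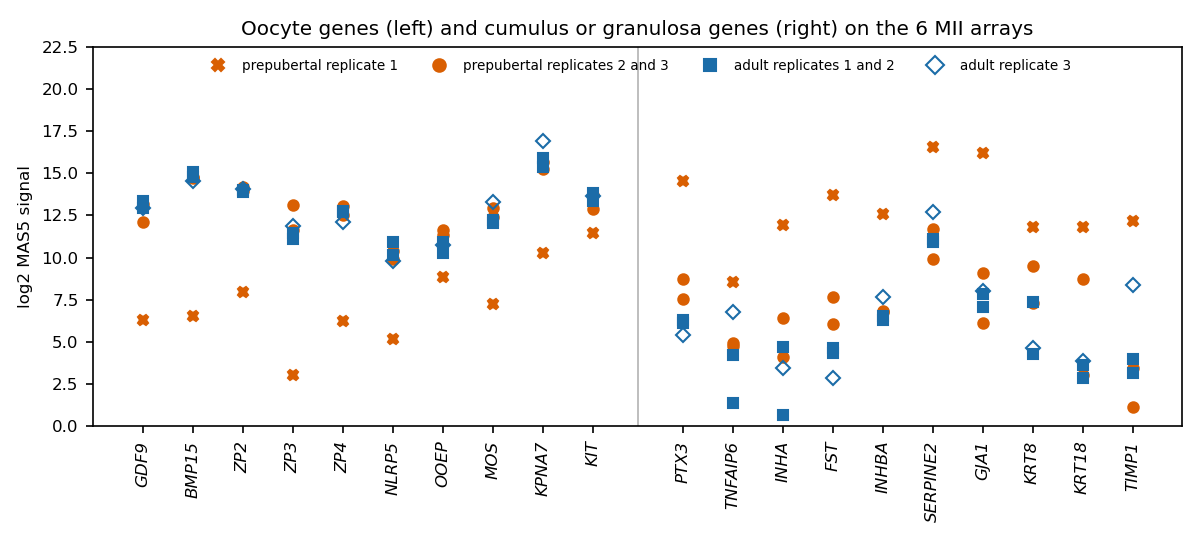
Log2 MAS5 signal (vertical axis) of 10 oocyte genes and 10 cumulus or granulosa genes on the 6 MII arrays, 1 symbol per array. The cross, prepubertal replicate 1, lies below every other array for all 10 oocyte genes (ZP2 at 7.98) and far above them for PTX3 at 14.53.

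A second array stood apart within the adult group. Prepubertal replicates 2 and 3 and adult replicates 1 and 2 had Spearman correlations of 0.725 to 0.786 with one another over all probe sets, and the highest of these joined prepubertal replicate 2 to adult replicate 2. Adult replicate 3 reached at most 0.503 with any array. Its oocyte list lay 6.60 log2 units above the array's median, a little below the 6.95 to 7.17 on those 4 arrays, against 0.37 on prepubertal replicate 1. Results are given with all 6 arrays (3 against 3) and without prepubertal replicate 1 (2 against 3). Values without adult replicate 3 as well (2 against 2) stand beside them where they bear on a result.

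Most nuclear genes of the respiratory chain had higher mean values in prepubertal than in adult MII pools, 67 of 77 with all 6 arrays and 64 of 77 without prepubertal replicate 1. For the cytosolic ribosome the counts were 64 and 55 of 67, and for the proteasome 28 and 29 of 40. Single genes with a probe set that read lower in every prepubertal pool included PPARGC1A, GRPEL2, MUC15 and MYB. Each of these also had a probe set on which the groups overlapped. No single gene passed the multiple-testing threshold. With limma and Benjamini-Hochberg adjustment, 0 of 24016 probe sets (0.0%) reached an adjusted p under 0.05 in the 3 against 3 fit, where the lowest adjusted p was 0.536. In the 2 against 3 fit 0 (0.0%) did so and the lowest was 0.999. At unadjusted p under 0.05, 482 probe sets (2.01%) were higher and 368 (1.53%) lower in prepubertal oocytes 3 against 3, and 261 (1.09%) were higher and 560 (2.33%) lower 2 against 3. This split moved with the scaling of the arrays: the 2 against 3 counts were 476 higher and 378 lower after median centring, 361 and 458 after quantile normalization, and 352 and 220 with a pseudocount of 32. In the 3 against 3 fit they were 578 and 290 after median centring. Median centring moved the median difference of all probe sets from -0.10 to 0.27 in the 2 against 3 fit. Within a group, probe sets spread with a median residual SD of 1.72 log2 units 3 against 3 and 1.48 2 against 3.

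Groups that did not overlap were common across the whole array. Every prepubertal array lay above every adult one for 1058 probe sets (4.41%) and below for 1276 (5.31%). Without prepubertal replicate 1 these counts were 1951 (8.12%) and 2756 (11.5%). A probe set was taken to stand in both fits when its 3 and 3 values did not overlap, its unadjusted p was under 0.05 with the same sign in both, and the higher group's mean was at least 8. That left 85 probe sets (0.354%) higher and 50 (0.208%) lower in prepubertal oocytes, with usable symbols for 61 and 24 genes. The fits share 5 arrays, so standing in both describes these pools and is no second test. After median centring 99 were higher and 21 lower, and after quantile normalization 85 and 69. Leaving out further arrays moved the counts: 48 were higher without prepubertal replicate 2, 30 higher and 23 lower without prepubertal replicate 3, 208 higher without adult replicate 2, and 114 lower without adult replicate 3.

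Adult replicate 3 and prepubertal replicate 1 were often at the ends of these values. Adult replicate 3 was the lowest adult array for 66 of the 85 higher probe sets, against 36.1% of all probe sets, and the highest adult array for 35 of the 50 lower ones, against 42.5%. Prepubertal replicate 1 was the highest prepubertal array for 52 of the 85 and the lowest for 25 of the 50. For that array the shares over all probe sets were not counted, so whether these counts are high cannot be judged. Low values set many of the larger differences. Array medians were 5.64 to 6.52, and the lower group's mean was under 5.64 for 27 of the 85 higher and 26 of the 50 lower probe sets. Detection calls were not used, so such low means are not shown to be above background, and the size of these differences and their rank have no exact meaning. The naming rule, which takes the largest differences, picked many of them: 11 of the 14 higher and 12 of the 14 lower genes.

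The 14 higher genes picked by that rule had varied roles. DCTN3, a subunit of the dynactin complex that links dynein to its cargo, read 11.99, 9.37 and 6.76 in prepubertal pools and 6.29, 1.23 and 2.18 in adult pools. Its difference was 6.14 (SE 1.72) 3 against 3 and 4.83 (SE 1.81) 2 against 3. The lowest prepubertal value lay only just above the highest adult one, and adult replicates 2 and 3 lay far under their array medians. HIBCH, a mitochondrial enzyme of valine breakdown, read 8.40, 8.03 and 8.46 against 6.04, 1.42 and 3.27. Its difference was 4.72 (SE 1.48), and 4.67 (SE 1.66) without prepubertal replicate 1. The prepubertal pools lay close together and the spread was in the adult group.

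PAK1, a kinase that acts on the cytoskeleton, separated the groups on every array. It read 8.59, 9.52 and 9.04 in prepubertal pools and 5.15, 5.18 and 3.30 in adult pools, with differences of 4.51 (SE 1.26) and 4.74 (SE 1.37). Neither prepubertal replicate 1 nor adult replicate 3 decided that separation, and 2 against 2 it was 4.12. The other probe sets of PAK1 did not show it, at -1.43 and -0.58 in the 3 against 3 fit. HOPX, a small homeodomain protein, had its highest value on prepubertal replicate 1. It read 13.42, 6.93 and 10.79 against 4.53, 6.12 and 2.68, and its difference was 5.94 (SE 1.63) with that array and 4.42 (SE 1.63) without it. VPS4A, an ATPase that takes membrane-scission filaments apart, read 9.35, 7.50 and 9.29 against 0.91, 6.59 and 4.50. HDDC2 and PIR had differences of 4.41 and 4.34 3 against 3 and 4.21 and 4.19 2 against 3. For POLDIP2, a partner of DNA polymerase delta, these were 4.08 and 4.46. UTP11 and NOP53 both act in ribosome assembly in the nucleolus. UTP11 read 12.09, 10.80 and 13.10 in prepubertal pools and 8.55, 10.29 and 4.86 in adult pools. NOP53 read 10.98, 9.34 and 10.38 against 8.48, 6.95 and 2.83. In both, adult replicate 3 was far below the other adult pools, and the 2 against 2 differences were 2.53 and 2.15. Further probe sets did not repeat these values: they were at -0.72 for VPS4A, -0.94 to 1.23 for UTP11 and -1.49 for NOP53 3 against 3. In the 2 against 3 fit they were at -2.46, -1.73 to 0.59 and -3.55. Without prepubertal replicate 1 the further NOP53 probe set was thus lower with no overlap, at 2.26 and 5.69 against 8.20, 7.24 and 7.15.

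**Figure D2:**
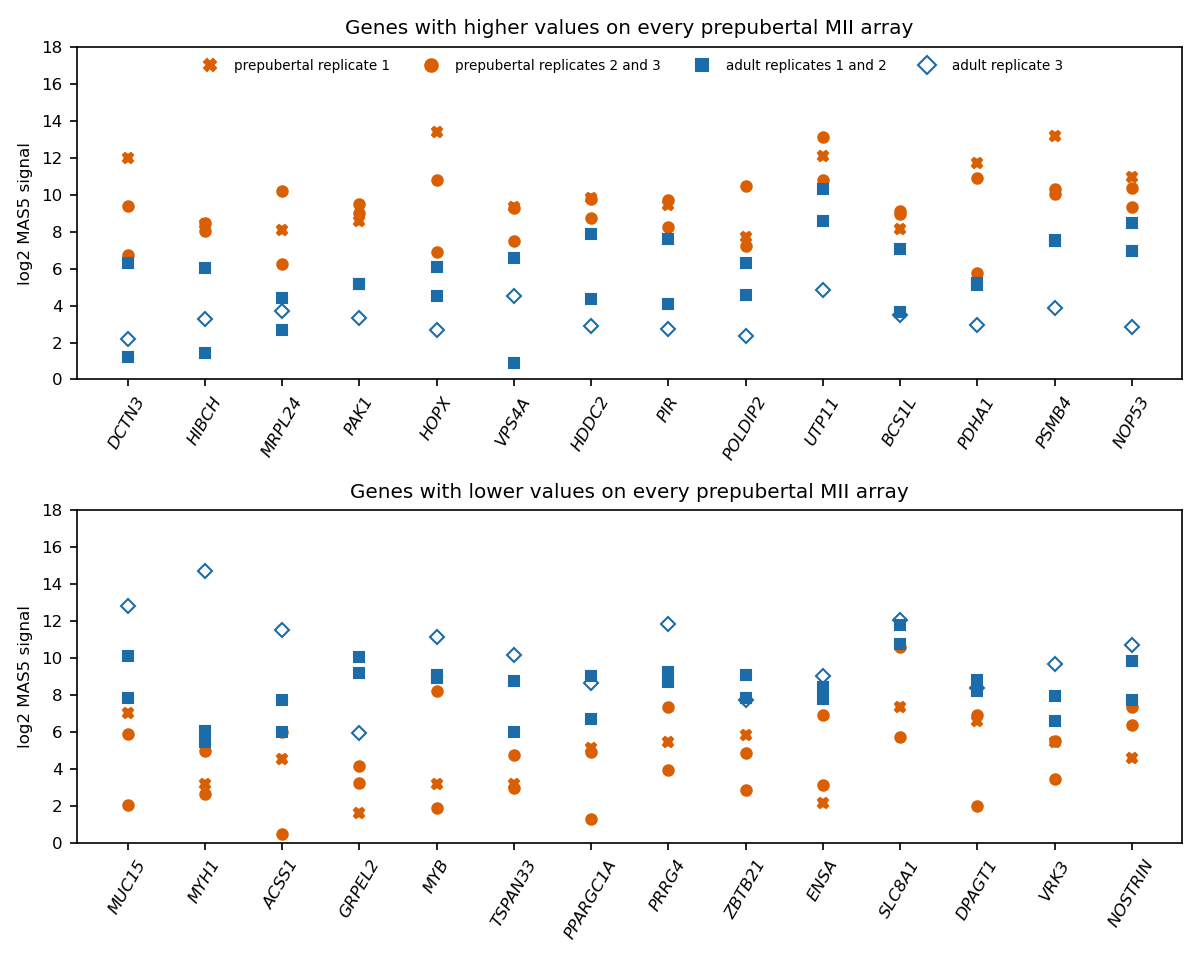
Log2 MAS5 signal (vertical axis) of the 14 higher and 14 lower genes with the largest differences standing in both fits, 1 symbol per MII array. The orange prepubertal symbols do not overlap the blue adult ones because the genes were chosen for that; PAK1 is separated on all arrays, while MYH1 owes its difference to adult replicate 3 at 14.72.

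Respiratory genes read higher in prepubertal oocytes as a list. Respiration in mitochondria passes electrons through complexes I to IV, and ATP synthase uses the proton gradient they build. Of 77 measured subunit genes encoded in the nucleus, 67 were higher in prepubertal oocytes 3 against 3, with a median difference of 1.04. Without prepubertal replicate 1 it was 64 of 77 with a median of 0.66, and 2 against 2 58 of 77 with a median of 0.55. Over all 9155 genes, 50.4% were higher 3 against 3 (median 0.02) and 52.6% 2 against 3 (median 0.08). The list's median level was 11.19, 10.02 and 10.37 on the prepubertal arrays and 9.36, 9.57 and 8.33 on the adult arrays. All 3 prepubertal medians thus lay above all adult ones. None of the 77 genes reached the adjusted threshold. At an unadjusted p under 0.05, 11 (14.3%) were higher 3 against 3 and 7 (9.09%) 2 against 3, against 250 (2.73%) and 143 (1.56%) of the 9155 genes, and none was lower. Theca and stroma genes had median differences of 1.23 3 against 3, 0.54 2 against 3 and 0.81 2 against 2. For cumulus and granulosa genes these were 0.84, -0.02 and 0.15. The summed theca and stroma signal was 2820 and 3004 on prepubertal replicates 2 and 3 and 2010, 3665 and 2790 on the adult arrays. The part of either list in the respiratory result was not tested.

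The median difference of each complex was above 0 with and without prepubertal replicate 1. In complex I, which takes electrons from NADH, 30 of 36 genes were higher 3 against 3 and 29 of 36 2 against 3, with medians of 0.96 and 0.93. For complex III with cytochrome c it was 9 of 9 in both fits, with medians of 1.42 and 0.55. Complex IV, the terminal oxidase, had 10 of 11 and 9 of 11 higher, with medians of 1.15 and 0.59, and ATP synthase 14 of 17 and 13 of 17, with 0.97 and 0.57. The 4 genes of complex II were all higher in both fits and 2 of 4 were higher 2 against 2.

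Of the single subunits, 5 (6.49%) stood higher in both fits, against 55 (0.601%) of all genes. NDUFB9 of complex I read 11.13, 10.62 and 10.82 in prepubertal pools and 7.65, 9.81 and 8.33 in adult pools. Its difference was 2.26 (SE 1.0) 3 against 3 and 2.13 (SE 0.97) 2 against 3. Here the 3 prepubertal values were nearly equal, the array with cumulus signal included. COX6A1 of complex IV read 12.50, 13.22 and 13.73 against 11.15, 12.07 and 5.94, and its difference of 3.75 (SE 1.35) 2 against 3 came down to 1.86 without adult replicate 3. The remaining 3 subunits belong to the membrane part of ATP synthase. ATP5MJ read 12.41, 10.62 and 10.61 against 9.36, 6.82 and 5.42. ATP5ME read 12.48, 9.58 and 10.68 against 8.06, 8.20 and 7.59. ATP5MC3, which encodes the ring subunit that turns with the proton flow, read 11.95, 11.60 and 13.88 against 10.53, 11.23 and 8.11. In each the groups were apart by less than the range within at least 1 of them. CYC1, cytochrome c1 of complex III, had tight groups at a low level: 7.32, 7.75 and 7.88 against 3.69, 3.53 and 4.12, a difference of 3.87 (SE 1.31) 3 against 3 and 4.04 (SE 1.45) 2 against 3. Its higher mean was under 8, so it was not counted as standing.

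Genes outside the list feed and assemble the chain. PDHA1, the catalytic subunit of the enzyme that brings pyruvate into the citric acid cycle, read 11.70, 5.75 and 10.91 in prepubertal pools and 5.23, 5.09 and 2.95 in adult pools. Prepubertal replicate 2 lay close to the adult pools, and the other 3 probe sets of PDHA1 had differences of -0.75 to 2.46 in the 3 against 3 fit. BCS1L, a chaperone that completes complex III, read 8.17, 9.14 and 8.97 against 3.67, 7.05 and 3.49. Its other probe set differed by 3.75 and 4.95, so both placed it higher. TIMM10, a chaperone that carries proteins between the mitochondrial membranes, read 8.66, 8.67 and 8.97 against 6.49, 6.44 and 3.63. For TPI1, a glycolytic enzyme, values were 13.62, 10.66 and 9.59 against 7.82, 7.95 and 4.84. The glycolysis and citric acid cycle list had 31 of 37 genes higher 3 against 3 (median 0.93) and 26 of 37 2 against 3 (0.48), but 19 of 37 without adult replicate 3 (0.08). Antioxidant genes, which limit the by-products of respiration, had 21 of 35 and 20 of 35 higher, with medians of 0.29 and 0.14.

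**Figure D3:**
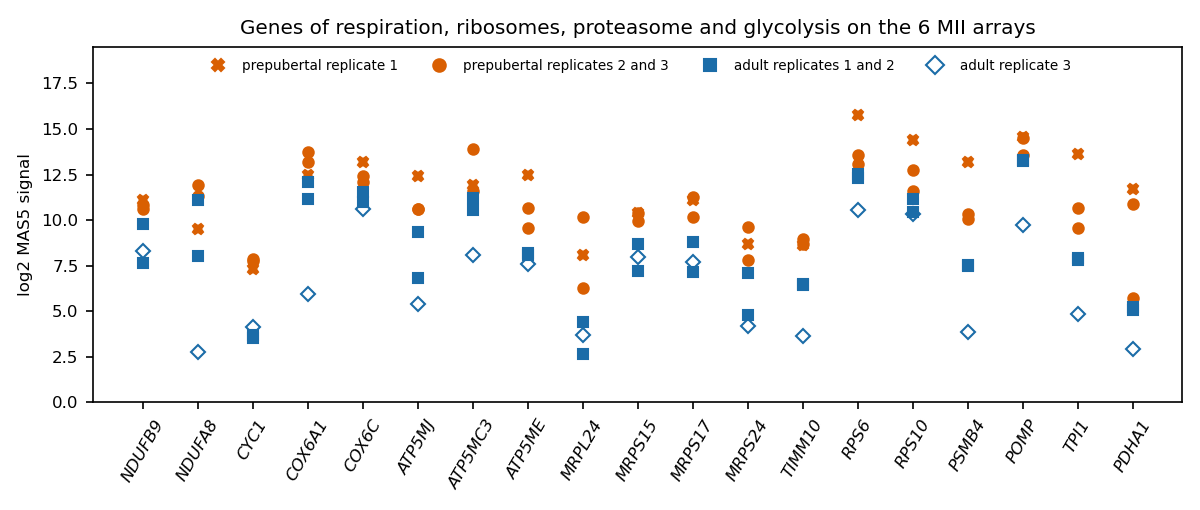
Log2 MAS5 signal (vertical axis) of 19 genes of respiration, mitochondrial and cytosolic ribosomes, the proteasome and glycolysis on the 6 MII arrays. Most are genes that stood higher in both fits, so their separation restates that choice and is not typical of their lists. NDUFB9, CYC1 and MRPS17 have closely spaced prepubertal symbols above all adult ones, while for COX6A1 and NDUFA8 the open diamond, adult replicate 3, lies far below the other arrays.

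Ribosomal protein genes were higher in number but with more of the difference on prepubertal replicate 1. Of 67 genes of the cytosolic ribosome, 64 were higher 3 against 3 with a median difference of 1.70. Without prepubertal replicate 1 it was 55 of 67 with a median of 0.85, and without adult replicate 3 as well 56 of 67 with 0.53. The median level of the list was 14.19 on prepubertal replicate 1, 11.62 and 11.63 on the other prepubertal arrays, and 10.78, 11.20 and 10.19 on the adult arrays. Large and small subunit genes had like medians, 1.62 and 1.81 3 against 3 and 0.85 and 0.89 2 against 3. Of the single genes, 2 (2.99%) stood in both fits. RPS6, the small subunit protein phosphorylated in growing cells, read 15.76, 13.08 and 13.56 in prepubertal pools and 12.53, 12.30 and 10.58 in adult pools. RPS10 read 14.37, 11.62 and 12.76 against 10.47, 11.14 and 10.35. Translation factors had 36 of 44 genes higher 3 against 3 (median 1.0), 31 of 44 2 against 3 (0.57) and 29 of 44 2 against 2 (0.22).

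Mitochondrial ribosomal genes lay on both sides. Of 71 measured, 42 were higher 3 against 3 and 47 2 against 3, with medians of 0.21 and 0.40. At an unadjusted p under 0.05, 7 (9.86%) were higher in each fit, beside 2.73% and 1.56% of all genes, and 0 were lower, beside 1.16% and 1.49%. MRPL24, a large subunit protein, read 8.07, 6.28 and 10.19 in prepubertal pools and 4.42, 2.68 and 3.70 in adult pools, and its differences were 4.58 (SE 1.46) and 4.63 (SE 1.62). MRPS17 read 11.10, 10.19 and 11.27 against 7.15, 8.81 and 7.71, and MRPS15 10.39, 9.94 and 10.39 against 7.21, 8.69 and 7.96. For these small subunit genes the difference was nearly the same in every set of arrays: for MRPS17 2.96 3 against 3, 2.84 2 against 3 and 2.75 2 against 2, and for MRPS15 2.28, 2.21 and 2.21. MRPS24 read 8.66, 7.83 and 9.60 against 4.78, 7.07 and 4.18.

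The proteasome, which degrades ubiquitin-tagged proteins and in MII oocytes removes cyclin B at egg activation, had 28 of 40 genes higher 3 against 3 (median 0.85) and 29 of 40 2 against 3 (0.73). Without adult replicate 3 the medians were 0.55 (3 against 2) and 0.35 (2 against 2). That array's list median was 8.05, while adult replicates 1 and 2 were at 9.83 and 10.62 and the prepubertal arrays at 11.40, 10.42 and 10.45. PSMB4, a subunit of the core barrel, read 13.18, 10.31 and 10.04 in prepubertal pools and 7.48, 7.53 and 3.88 in adult pools. POMP, the chaperone that builds the core, read 14.54, 13.60 and 14.51 against 13.32, 13.26 and 9.72. Its other probe set had overlapping groups, at 11.12, 11.40 and 10.97 against 11.94, 11.15 and 9.46, with differences of 0.31 and 0.34. PSMC2, an ATPase of the cap, lay the other way in the 2 against 3 fit: 9.37 and 2.31 against 9.81, 10.06 and 14.51, with 12.82 on prepubertal replicate 1. Its brighter probe set read 11.04 and 9.95 against 11.02, 11.26 and 12.83, so there the groups overlapped.

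**Figure D4:**
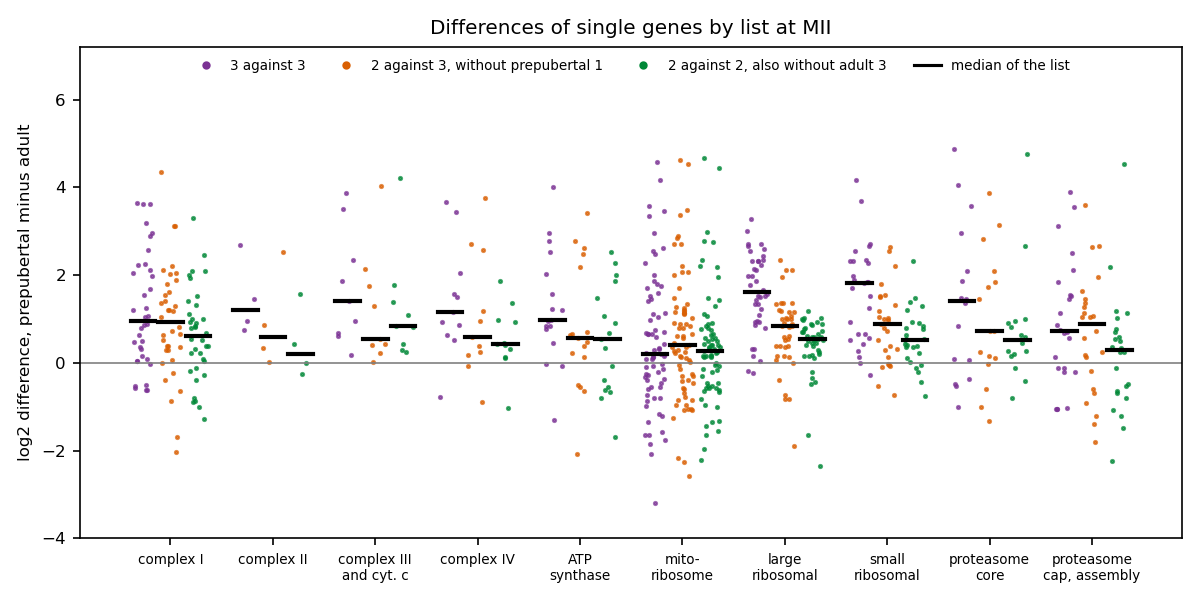
Log2 difference, prepubertal minus adult (vertical axis), of each measured gene in 10 lists, with 1 dot per gene and set of arrays and a bar at the list median. Medians of the respiratory complexes, ribosomal subunits and proteasome lists lie above 0 in all 3 sets of arrays and are smaller without prepubertal replicate 1 for the ribosome, 1.62 against 0.85 for the large subunit.

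On the lower side, PPARGC1A, a regulator of mitochondrial biogenesis, had a lower mean in prepubertal oocytes on each of its probe sets. The probe set chosen by the naming rule read 5.13, 4.89 and 1.27 in prepubertal pools and 9.03, 6.70 and 8.65 in adult pools. The difference was -4.37 (SE 1.51) 3 against 3, -5.05 (SE 1.57) 2 against 3 and -4.79 2 against 2. All 4 of its probe sets had lower means in both fits, from -4.57 to -0.79 3 against 3 and from -5.05 to -0.29 2 against 3. The brightest of them read 3.73, 10.56 and 9.38 against 11.58, 11.60 and 10.25, so there the groups overlapped. GRPEL2, an exchange factor of the mitochondrial HSP70, read 1.60, 3.25 and 4.17 against 10.05, 9.20 and 5.91. Its difference was -5.38 (SE 1.53) 3 against 3, -4.68 (SE 1.52) 2 against 3 and -5.92 2 against 2. The brightest of its 4 probe sets differed by -0.92 and -0.69, and the other two by -1.59 and 0.63 3 against 3. ACSS1, which makes acetyl-CoA from acetate in mitochondria, read 4.50, 5.96 and 0.48 against 7.70, 6.01 and 11.49. In this gene the groups were barely apart, at 5.96 and 6.01, and its other probe set differed by -0.99 and -0.19.

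MUC15, a membrane mucin, had the largest lower difference 2 against 3 among the named genes that stood in both fits. It read 7.04, 2.04 and 5.88 in prepubertal pools and 10.08, 7.85 and 12.81 in adult pools, with differences of -5.26 (SE 1.59) and -6.28 (SE 1.58). A further probe set gave -5.21 and -5.74, and the last of its 3 probe sets gave 0.12 and 0.18. MYB, a transcription factor of proliferating cells, read 3.19, 8.22 and 1.85 against 9.05, 8.89 and 11.11, and its other probe set differed by -0.70 and -0.42. The myosin heavy chain gene MYH1 read 3.16, 2.66 and 4.95 against 5.44, 6.03 and 14.72. Its 2 against 3 difference of -4.93 (SE 2.28) was -1.93 without adult replicate 3. Of the 8 probe sets of MYH1, 7 were lower 3 against 3, and all 8 ranged from -5.59 to 2.20. The one at -5.59 also stood in both fits, with 15.22 on adult replicate 3. ENSA, whose protein holds back the phosphatase that opposes M-phase kinase, read 2.17, 3.12 and 6.89 against 7.80, 8.40 and 9.03. It has 6 probe sets, of which the brightest pair differed by -0.15 and -0.09 2 against 3 and another by 1.63, so this value is not shared by the brighter ones. SLC8A1, a sodium-calcium exchanger, read 7.33, 10.57 and 5.71 against 11.80, 10.75 and 12.06. Its 4 probe sets differed by -3.39 to 1.13 2 against 3. TSPAN33, PRRG4, ZBTB21, DPAGT1, VRK3 and NOSTRIN completed the group, with 3 against 3 differences from -4.68 for TSPAN33 to -3.25 for VRK3 and 2 against 3 differences from -4.46 for TSPAN33 to -2.56 for NOSTRIN. Further probe sets were at -0.28 for TSPAN33, -0.27 for DPAGT1 and 0.10 for VRK3 3 against 3. ZBTB21, a zinc finger protein, read 5.84, 2.85 and 4.86 in prepubertal pools and 7.82, 9.06 and 7.73 in adult pools.

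Some lower genes with strong signal on the oocyte arrays had smaller differences once prepubertal replicate 1 was left out. UHRF1, which brings the maintenance methyltransferase to DNA, read 13.62 and 14.46 on prepubertal replicates 2 and 3 and 15.26, 14.79 and 15.24 on the adult arrays. The difference of -1.05 (SE 0.38) 2 against 3 was -3.20 (SE 1.34) with prepubertal replicate 1, which read 7.61. The other probe set of UHRF1 did not show it: it read 13.70 and 14.04 against 13.88, 13.78 and 13.79, a difference of 0.05 2 against 3. BANP, PRKDC, RALB and TP53INP1, named after their values were seen, had the same pattern. Their differences were -2.02, -1.70, -1.39 and -1.47 2 against 3 and -3.82, -2.23, -1.89 and -1.89 3 against 3. A further probe set of each of BANP, RALB and TP53INP1 had overlapping groups. These were at 1.65, -0.79 and -1.10 3 against 3 and at 0.50, 0.05 and -0.51 2 against 3, so that of BANP lay the other way.

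The other probe sets of the standing genes gave a mixed answer. Of the 85 genes that stood in both fits, 38 had more than 1 probe set. These had 68 further probe sets, of which the 64 that did not stand themselves are counted next. For the higher genes, 19 of 34 such probe sets were also higher 3 against 3 and 17 of 34 2 against 3. For the lower genes, 24 of 30 were also lower 3 against 3 and 21 of 30 2 against 3. All probe sets shared the direction in both fits for 9 of 22 higher and 6 of 16 lower genes. Those with at least 3 probe sets were TAF13, PIR and PPARGC1A. TAF13, a subunit of the general transcription factor TFIID that was named here for this agreement, had 4 probe sets with 3 against 3 differences of 0.68 to 3.79 and 2 against 3 differences of 0.93 to 3.56. PIR, a nuclear protein of the cupin family, had 3 probe sets with differences of 1.27 to 4.34.

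The largest difference in each fit belonged to a probe set that the annotation table pairs with no gene. Chosen after its values were seen, it read 16.03, 9.96 and 10.66 in prepubertal pools and 1.36, 2.34 and 3.07 in adult pools. The adult values lay far under the array medians, so the difference has no exact size. It was 9.96 (SE 1.58) 3 against 3 and 8.05 (SE 1.47) 2 against 3, with limma adjusted p of 0.536 and 0.999. A second, which shares the first part of its design name, read 17.33, 9.86 and 12.16 against 6.59, 6.47 and 2.74. Both were highest on prepubertal replicate 1, where the cumulus list was high. On prepubertal replicates 2 and 3 they were above every adult pool. The first was chosen for its large difference, so for it this order largely restates the choice. At the germinal vesicle (GV) stage, before maturation, the first of these read 13.45, 6.99 and 6.38 in prepubertal pools and 9.77, 6.67 and 2.05 in adult pools. The part of cumulus RNA in these values was not tested.

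Some genes reached an unadjusted p under 0.05 with all 6 arrays and not without prepubertal replicate 1. KRT8, a keratin of epithelial cells, read 11.84, 9.51 and 7.29 in prepubertal pools and 4.27, 7.38 and 4.61 in adult pools. VCAN, a matrix proteoglycan of the expanding cumulus, read 15.30, 10.43 and 10.27 against 8.27, 9.90 and 6.20. Both belong to the cumulus and granulosa list. EGR1 and IER2, genes of the immediate early response, read 15.27 and 12.23 on prepubertal replicate 1. The 3 against 3 differences of these 4 genes were 3.88 to 4.86 and their 2 against 3 differences 2.23 to 2.98. EIF4B and AURKAIP1 had 3.70 and 3.46 3 against 3 and 2.81 and 2.88 2 against 3. Further probe sets of EGR1 and IER2 were lower 3 against 3, at -0.27 for EGR1 and -1.82 and -0.49 for IER2. Those of VCAN had overlapping groups, at 3.643 and 1.845 3 against 3 and 1.609 and 0.184 2 against 3. The lower genes of this kind were TEX14, SOX15, MYH8, TCF20, TAF6 and SKA3, with differences of -4.33 to -2.62 3 against 3 and -3.52 to -1.43 2 against 3. Other probe sets of TAF6 and SKA3 both reached 0.06 3 against 3. SOX15 read 4.41 on prepubertal replicate 1, 9.64 and 11.07 on the other prepubertal arrays and 11.12 to 13.63 on the adult arrays. The difference between the fits was not itself tested, since they share arrays.

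Other genes reached an unadjusted p under 0.05 only once prepubertal replicate 1 was left out. NUP37, a nucleoporin that also sits at kinetochores, read 14.31 and 13.51 on prepubertal replicates 2 and 3 and 11.13, 12.74 and 9.75 on the adult arrays, a difference of 2.70 (SE 0.77). Its other probe sets differed by 0.37 and -0.24. RTF2 read 11.13 and 12.74 against 8.32, 9.78 and 7.27, and HSPBAP1 11.64 and 11.88 against 9.65, 9.62 and 6.41. TRIM32, SH3GL2 and DPCD differed by 2.11, 4.82 and 2.01. On prepubertal replicate 1 these 6 genes lay between 2.49 and 10.15, below both other prepubertal pools. ANKRD12 led the lower side, at 1.66 and 4.61 against 9.13, 8.85 and 9.14, a difference of -5.91 (SE 1.38). Its other probe set lay the other way, at 1.89 2 against 3 and 3.59 3 against 3. LONP2, a protease of peroxisomes, read 4.38 and 1.24 against 8.72, 7.79 and 9.05. MTURN, CUEDC1 and BRWD1 differed by -4.56, -4.46 and -2.35, while further probe sets of each reached 0.81, 2.14 and 1.20 2 against 3. In ANKRD12, LONP2, MTURN and CUEDC1 prepubertal replicate 1 was higher than all adult pools, at 9.37 to 11.63, so the groups overlapped with all 6 arrays.

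Oocyte and M-phase genes had median differences near 0 once prepubertal replicate 1 was left out. That array was set aside for its low oocyte genes, so the values of the oocyte list restate that choice. With it, 0 of 10 oocyte genes were higher, with a median difference of -1.93, and without it 5 of 10, with a median of 0.01. M-phase and meiotic cell cycle genes had 6 of 38 higher and a median of -0.92 with it, and 18 of 38 and -0.05 without it. CCNB1, the cyclin of the M-phase kinase, read 14.03 and 13.38 on prepubertal replicates 2 and 3 and 13.57, 13.48 and 13.90 on the adult arrays. MOS, the kinase that holds the MII arrest, read 12.41 and 12.94 against 12.22, 12.05 and 13.29. The 2 against 3 differences were 0.05 (SE 0.44) and 0.15 (SE 0.57), each smaller than its error. Genes of messenger RNA storage and decay had 16 of 32 higher 3 against 3 (median 0.01) and 18 of 32 2 against 3 (0.09). Cumulus and granulosa genes had 26 of 38 higher 3 against 3 (median 0.84) and 18 of 38 2 against 3 (-0.02), and theca and stroma genes 16 of 22 (1.23) and 14 of 22 (0.54).

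The values of the remaining lists stand beside medians of 0.02 and 0.08 over all genes. Mitochondrial import and dynamics genes had 26 of 42 higher in each fit, with medians of 0.38 and 0.35. Dynein, dynactin and tubulin genes, which build and move along the spindle, had 18 of 31 higher 3 against 3 (0.51) and 22 of 31 2 against 3 (0.47). For heat shock proteins and chaperonins it was 25 of 42 (0.23) and 27 of 42 (0.30). Histone and DNA modifiers had 14 of 35 (-0.33) and 20 of 35 (0.08). Genes of cyclic AMP signalling, which holds immature oocytes in arrest, had 10 of 20 (0.02) and 8 of 20 (-0.09), and those of egg activation and calcium 10 of 21 (-0.08) and 12 of 21 (0.16). Interferon and innate response genes had 17 of 26 (1.0) and 13 of 26 (0.03), with a median level of 8.65 on prepubertal replicate 1 and 4.97 to 7.07 on the other arrays. Blood and endothelial genes read lower, with 9 of 24 (-0.81) and 10 of 24 (-0.54) higher.

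Values at GV, from other pools, are given for the genes that stood at MII. Of the 85 higher probe sets, 71 were also higher in the 3 prepubertal than in the 3 adult GV pools, against 50.9% of all probe sets. GV prepubertal replicate 1 and GV adult replicate 1 also lacked the oocyte profile, and without them 52 of 85 were higher, against 57.0%. Of the 50 lower ones, 30 and 16 were lower at GV, against 49.1% and 43.0%. For the respiratory genes the GV medians were 1.09 with all 6 GV arrays and 0.05 without those 2, and for the cytosolic ribosome 1.80 and -0.08. The list differences between stages were not tested. For single probe sets, limma's interaction of age and stage had 0 of 24016 at an adjusted p under 0.05, over all 12 arrays and over the 9 with an oocyte profile, and 292 and 760 at an unadjusted p under 0.05.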

How the data were processed

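The values are log2 signals deposited by the authors. MAS5 is named in the submitters' processing notes, with a version not given in the sources used here. Their trimmed linear mean was near 500 on each array, so arrays were not scaled again. Of 24128 probe sets, 112 controls were left out. Gene symbols were taken from the platform annotation and updated by Entrez identifier (13292 probe sets with 1 symbol, 86 with several, 10638 with none). The MII arrays were modelled by group in limma 3.58.1 under R 4.3.3 (lmFit, eBayes with an intensity trend), adjusted by Benjamini and Hochberg over all 24016 probe sets at 0.05. The fits were tested on simulated data. Lists used the probe set of each gene with the highest mean. The members and lists were chosen with earlier results of these data known. Named genes were the 14 per direction standing in both fits with the largest smaller difference, the 6 per direction with the smallest p in 1 fit alone, and list members. Alternatives were quantile normalization, median centring, filters at the 40th and 60th percentile, a pseudocount of 32, a fit with all arrays, the replicate block, no trend, array weights, averaging over the probe sets of a gene and leaving out each array.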

Additional observations from a re-analysis of the deposited data

How the results depend on the processing

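The count at adjusted p under 0.05 was 0 in both limma fits under every alternative but 2: array weights gave 1 in the 3 against 3 fit (the probe set without a gene that had the largest difference, 8.85, adjusted p 0.0227), and the replicate block gave 6 in the 2 against 3 fit, which then had 1 residual degree of freedom. These were UBE2C, PSMC2, SH3GL2, COX6A1 and 2 probe sets without a symbol, with a lowest adjusted p of 0.0276, and in each adult replicate 3 lay far from the other adult pools. Same-numbered pools deviated from their group means with correlations of -0.088, 0.100 and -0.081, and not every pool correlated best with its own number. The numbers were therefore not taken as pairs, although such correlations cannot show whether same-numbered pools were handled together. Under the replicate block SH3GL2 differed by 6.43 and PSMC2 by -6.45 in the 2 against 3 fit. At unadjusted p under 0.05, 850 probe sets 3 against 3 became 436 and 249 with filters at the 40th and 60th percentile and 1404 with array weights (702 to 1184 when 1 array was left out). The 821 probe sets 2 against 3 became 404 and 235 with the filters, 418 with all arrays, 1263 with the replicate block and 1343 with array weights (375 to 1355 with 1 array left out; 375 without prepubertal replicate 3 and 1355 without adult replicate 3). The filters test fewer probe sets; the cause of the other changes was not tested. Probe sets standing higher were 55 with the stricter filter, 45 with all arrays and 44 without the trend (30 to 208 with 1 array left out). Those standing lower were 21 after median centring, 23 with all arrays, 26 without the trend and 84 with array weights (23 to 114). The ribosome median of 1.70 was 0.53 without prepubertal replicate 1 and adult replicate 3. With 1 array left out, the 3 against 3 medians were 0.66 to 1.42 for respiration, 0.85 to 2.20 for the ribosome and 0.55 to 1.19 for the proteasome, and the 2 against 3 medians 0.55 to 0.93, 0.53 to 0.94 and 0.35 to 1.03. No named gene passed the adjusted threshold in either fit, so staying on that side of it shows nothing about stability, and sizes moved (MYH1 from -4.93 to -1.93 without adult replicate 3). Of 1488 values of named genes under alternatives, 9 reversed direction, all in the 3 against 3 fit: NUP37 at -0.74, -0.34 and -0.18 without prepubertal replicate 2, prepubertal replicate 3 and adult replicate 3; TRIM32 at -0.76, -1.07 and -0.27 without the same arrays and -0.20 after quantile normalization; and SH3GL2 at -0.04 and -0.55 without prepubertal replicate 3 and adult replicate 3. Without prepubertal replicate 1 the same genes were at 2.70, 2.11 and 4.82. The genes that stood in both fits were chosen for groups that did not overlap, so leaving out an array could not reverse them. The others were chosen for a small p in 1 fit. The low number of reversals therefore largely restates the choice of genes. The number of pools limits the precision throughout.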
